A study of Mus musculus with 2 samples.

Results

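Plet1 (placenta expressed transcript 1, ENSMUSG00000032068) was followed through the dendritic cells, monocytes and macrophages of mouse liver with and without a colon carcinoma growing in it. It is 1 of the 28692 genes in the count matrices and was found by its symbol. It was selected on its UMI counts in an earlier reading of these data, which had shown it in dendritic cells of the tumor-bearing liver and hardly at all in the other library, so its levels between the libraries are given as a description, with no test. The classes of cells were set by marker genes that do not include Plet1.

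The 2 libraries came from droplet sequencing of the 5′ ends of transcripts with unique molecular identifiers (UMIs, each counting 1 captured molecule). The MC38 library held liver mononuclear cells of C57BL/6 mice taken 14 days after an injection into the spleen of 500000 MC38 cells, which are a colon adenocarcinoma line of mouse origin; the spleen was then taken out. The control library came from C57BL/6 mice given buffer by the same route and labelled as having no tumor. Each library pooled 3 mice, so there was 1 library per group and no replicate. A subcutaneous dose of 3000000 MC38 cells stands in the protocol text of both groups. The sources used here do not say if the control mice received it or had their spleens taken out. Hepatocytes had been depleted by slow spins and the cells taken from a density gradient. The sources used here name neither sex nor age.

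PLET1 is a cell surface glycoprotein held by a lipid (GPI) anchor, known from the placenta, from progenitor cells of the thymic epithelium, from hair follicle keratinocytes, and from dendritic cells of the gut wall, where it has been linked to migration. Dendritic cells take up antigen and present it to T cells. Type 1 conventional dendritic cells (cDC1) are known for presenting taken-up antigen to CD8 T cells, type 2 (cDC2) mainly present to CD4 T cells, and mature dendritic cells have turned on Ccr7, the receptor that guides them to lymph nodes. Classical monocytes are blood cells that enter inflamed tissue and can become macrophages there.

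In GRCm38 the annotation places Plet1 on the plus strand of chromosome 9, at chr9:50494525-50505482, as a protein-coding gene, and its transcript Plet1-201 has 4 exons. Its first exon, of 222 bases, lies at chr9:50494525-50494746. Plet1os (ENSMUSG00000101304), an antisense transcript, runs over it on the minus strand at chr9:50488795-50507823. Exons of Plet1os overlap exons 2 and 4 of Plet1-201 but not its first exon. Reads from the overlapping stretches are separable only if strand was used in counting, which the sources used here do not state. The 250 bases before the start of Plet1 (RefSeq promoter table, GRCm38.p6, plus strand, chr9:50494275-50494524) are printed because they are the sequence next to the gene whose RNA separated the libraries; capitals mark an octamer motif and a TATA box.
Plet1 promoter: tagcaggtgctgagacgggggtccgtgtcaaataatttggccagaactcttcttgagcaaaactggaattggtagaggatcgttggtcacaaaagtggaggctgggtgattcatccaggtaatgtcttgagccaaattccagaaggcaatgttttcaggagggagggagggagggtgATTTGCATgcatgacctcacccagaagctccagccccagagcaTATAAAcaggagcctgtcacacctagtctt

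Both strands were searched for 5 motifs. The TATA box, TATAAA, begins 30 bases before the start, and 13.0% of 27025 promoters of the same length hold it on either strand. The octamer, ATTTGCAT, begins 73 bases before the start and is held by 1.61% of them. The letters of an E-box (CACGTG), an AP-1 motif (TGACTCA) and a consensus NF-kB motif were not in this window, and 6.05%, 4.43% and 0.13% of promoters hold them. The data hold no measure of binding, so these letters are a description only.

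The MC38 library held 19822 barcodes with 114421875 UMIs and the control library 14258 barcodes with 91617457 UMIs. After filters on genes, mitochondrial RNA and doublets, 11855 MC38 and 3448 control cells were kept, 59.8% and 24.2% of the barcodes. The limit of 10% mitochondrial UMIs removed most of the rest, 33.3% of MC38 and 74.8% of control barcodes, so control classes are given at other limits too. The libraries shared 63 barcodes, which held 7 Plet1 UMIs in the MC38 library and 0 in the control library. Values are counts per 1000000 UMIs of a class (CPM). Intervals are 95%, exact Poisson for levels, exact conditional for ratios of counts and exact Clopper-Pearson for shares, and cover counting error only, not the spread between cells or between mice.

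Over all barcodes the MC38 library held 1702 Plet1 UMIs in 344 barcodes and the control library 8 UMIs in 7 barcodes. The kept cells held 1509 of these UMIs in the MC38 library and 6 in the control library. Plet1os did not follow this pattern: it had 41 UMIs in the MC38 library, 0.358 CPM, and 35 UMIs in the control library, 0.382 CPM. Of the kept cells, 3 held UMIs of both genes.

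Most of the Plet1 RNA of the MC38 library sat in conventional dendritic cells. cDC1-like cells held 632 UMIs, 41.9% of the Plet1 UMIs of the kept cells, and cDC2-like cells held 538, or 35.7%. The level was 364 CPM (336 to 394) in 119 MC38 cDC1-like cells, against 0 UMIs in 140 control cDC1-like cells, where 3 counts would be 1.44 CPM. With the control set to that limit, the ratio of MC38 to control cells was 253. The counting interval of the ratio, from the 0 UMIs found, began at 205. In cDC2-like cells it was 251 CPM (230 to 273) in 179 MC38 cells, against 0.97 CPM (0.2 to 2.83) from 3 UMIs in 255 control cells, a ratio of 259 with a counting interval of 6.46 to 10.3 on the log2 scale around 8.02. By the lower end of its counting interval Plet1 ranked 1 among 8794 genes in cDC1-like and 9524 in cDC2-like cells for MC38 over control; 5.97% and 8.33% of those genes were at least 1.5 times higher with an interval that left out no difference. These ranks come from the contrast by which the gene was picked.

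Both libraries had similar depth in these classes: the median was 15207 UMIs per MC38 and 14006.5 per control cDC1-like cell, and 11879 and 11029 per cDC2-like cell. With no mitochondrial limit there were 143 MC38 and 284 control cDC1-like cells, with 674 and 0 Plet1 UMIs. The cDC2-like cells then numbered 191 in the MC38 and 398 in the control library, with 545 and 3 Plet1 UMIs.

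**Figure D1:**
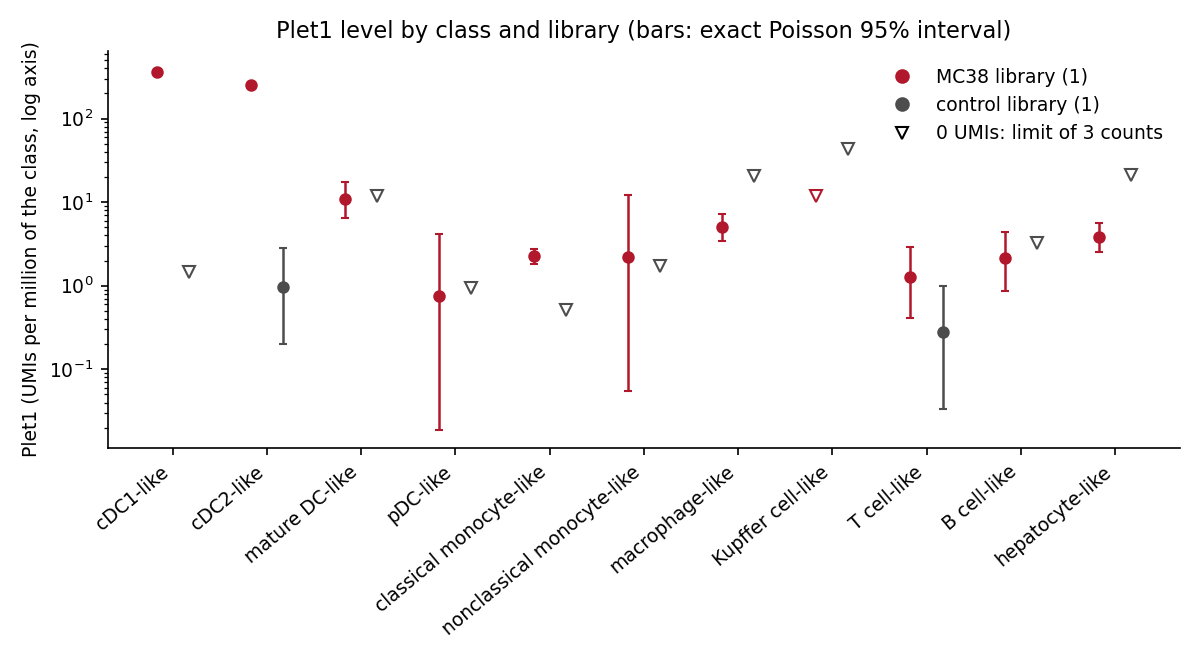
Plet1 level, in CPM on a log axis, for 11 classes; red points are the MC38 library and grey points the control library, bars are exact Poisson 95% intervals, and open triangles stand at the limit of 3 counts where no UMI was found. The MC38 cDC1-like and cDC2-like points, at 364 and 251 CPM, stand far above all others, and the control points or limits of these 2 classes are at 1.44 CPM or lower.

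Another 12 MC38 cells that could be cDC1 or cDC2 had 13 UMIs, 94.9 CPM (50.5 to 162), in 4 cells, and the 16 such control cells had 0. The classes outside conventional dendritic cells were far lower. Mature DC-like cells of the MC38 library had 18 Plet1 UMIs, 10.9 CPM (6.47 to 17.2), in 213 cells; the 35 control cells had 0, but with so few cells a level of 11.8 CPM would be the limit, so no fold can be given. With no mitochondrial limit the values were 20 UMIs, 9.65 CPM, in 284 MC38 cells and 0 UMIs in 131 control cells, where the limit was 3.13 CPM. Macrophage-like cells had 30 UMIs, 5.04 CPM (3.4 to 7.2), in 543 MC38 cells and 0 in 27 control cells. Classical monocyte-like cells had 95 UMIs, 2.28 CPM (1.84 to 2.78), in 3469 MC38 cells and 0 in 592 control cells. With the control set to 3 counts the ratio was 4.46, and the counting interval from the 0 UMIs found began at 3.55. On the log2 scale the ratio of 4.46 is 2.16, but it was 0.04 with classes from joint clustering and 0.5 at a mitochondrial limit of 5%. Nonclassical monocyte-like cells had 1 UMI in 51 MC38 cells and 0 in 166 control cells. Another 219 MC38 cells that could be monocytes or macrophages had 4 UMIs, and the 66 Kupffer cell-like cells, macrophages that live in the liver sinusoids, had 0.

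The low levels of the monocyte- and macrophage-like classes stand close to those of cells not known to make Plet1. In the MC38 library, T cell-like cells had 1.26 CPM (0.409 to 2.94), B cell-like cells 2.14 CPM (0.862 to 4.42), hepatocyte-like cells 3.85 CPM (2.54 to 5.61) and plasmacytoid dendritic cell-like (pDC-like) cells 0.752 CPM (0.019 to 4.19). The intervals of classical monocyte-like and macrophage-like cells overlap at least 1 of these. The mature DC-like interval, 6.47 to 17.2 CPM, lies above all of them. In the order of levels over the MC38 classes of at least 20 cells, cDC1-like cells came first, cDC2-like cells second, and the cDC1-like level was 1.45 times the cDC2-like one (1.29 to 1.63). Mature DC-like cells came next, beside mast cell- or basophil-like cells at the same 10.9 CPM from 6 UMIs in 1 cell. The mature DC-like interval did not reach that of cDC2-like cells but overlapped that of macrophage-like cells.

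The share of cells with a Plet1 UMI was also highest in cDC1-like, then in cDC2-like cells. It was 55.5% of MC38 cDC1-like cells, 66 of 119 (46.1 to 64.6%), against 0 of 140 control cells (0 to 2.6%). A floor of 3 control cells would be 2.14%. Both limit cells with a UMI, not cells that express the gene. The share was 38.5% of MC38 cDC2-like cells, 69 of 179 (31.4 to 46.1%), against 2 of 255 control cells, 0.784% (0.0951 to 2.8%). It was 3.29% of MC38 mature DC-like cells, 7 of 213, and 0.721% of classical monocyte-like cells, 25 of 3469. In classes that should lack the gene it was 0.871% of T cell-like cells (median 5597 UMIs), 0.649% of B cell-like cells (2804 UMIs) and 0.7% of hepatocyte-like cells (1473 UMIs), each with at most 2 UMIs in a cell. The classical monocyte-like share lies among these, but 7 of its 25 cells with a UMI had 5 or more, up to 13, and 10 cells held 78 of the 95 UMIs. Thinned to 1000 UMIs per cell, the expected share was 24.3% of MC38 cDC1-like and 17.1% of cDC2-like cells, against 0.129% of classical monocyte-like, 0.053% of T cell-like, 0.156% of B cell-like and 0.399% of hepatocyte-like cells.

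Within a class the cells differed widely. Of the 119 MC38 cDC1-like cells, 53 had no Plet1 UMI, 27 had 1 to 4, and 39 had 5 or more, up to 44 in a single cell. The 10 richest cells held 295 UMIs, 46.7% of the class. Of the 179 cDC2-like cells, 110 had none, 27 had 1 to 4, and 42 had 5 or more, up to 34, and the 10 richest held 216 UMIs, 40.1%. The median over cells with a UMI was 6 in both classes. In mature DC-like cells 4 of the 7 cells with a UMI had only 1.

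The share with a UMI did not climb steadily with depth. Over 3 bins of cDC1-like cells of rising depth (medians of 4826.5, 15207 and 21122.5 UMIs), it was 50.0%, 64.1% and 52.5%. Over 3 such bins of cDC2-like cells (8707, 11879 and 14928.5 UMIs), it was 35.0%, 30.5% and 50.0%. Cells in cycle, taken as those with at least 5 UMIs of 9 genes of cell division, carried Plet1 as well: 17 of 29 cycling and 49 of 90 other MC38 cDC1-like cells had a UMI, and 8 of 16 cycling and 61 of 163 other cDC2-like cells. The level was 244 CPM (205 to 289) in cycling and 421 CPM (385 to 459) in other cDC1-like cells, with median depths of 21018 and 13987.5 UMIs. In cDC2-like cells it was 225 CPM in cycling and 255 CPM in other cells. None of 36 cycling control cDC1-like cells and none of 13 cycling control cDC2-like cells had one.

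**Figure D2:**
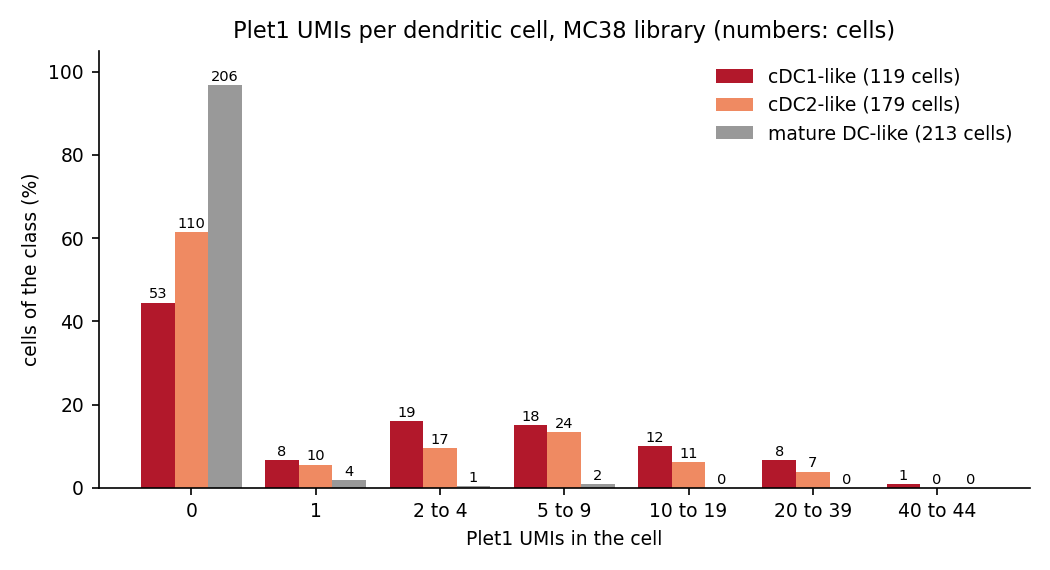
Share of cells (%) by the number of Plet1 UMIs in the cell, for 3 dendritic classes of the MC38 library; the number over each bar is its count of cells. Many cDC1-like and cDC2-like cells hold 5 or more UMIs, while 206 of 213 mature DC-like cells hold none.

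The few Plet1-positive cells among the monocyte- and macrophage-like classes were compared for genes that mark dendritic cells. In the 25 positive classical monocyte-like cells Xcr1, a chemokine receptor of cDC1, was at 88.4 CPM and in 16% of cells, against 0.509 CPM and 0.348% of the 3444 negative cells. Flt3, the growth factor receptor of dendritic cells, was at 54.4 CPM in the positive and 7.99 CPM in the negative cells, and Itgae, which encodes CD103, at 72.5 and 0.751 CPM. The monocyte genes Ly6c2 (750 and 1189.3 CPM) and Ccr2 (999 and 1427.6 CPM) were present in both. In the 11 positive macrophage-like cells the complement gene C1qb was at 2054.4 CPM, against 3155.4 CPM in the 532 negative cells. The part of mixed droplets in these cells was not tested.

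Plet1-positive cells, with at least 1 UMI, were then compared with Plet1-negative cells of the same class inside the MC38 library. Both sets came from the same 3 pooled mice and 1 library, so cells are no replicates and there is no test. Among genes with at least 20 UMIs over both sets, one is counted if it differs 1.5 times or more and its counting interval leaves out no difference. Such counts are descriptions, and 1 cell rich in a gene can make it pass. The counts within cDC1-like and within cDC2-like cells are therefore also given without that cell where it alters them. The overlap of the 2 classes is not. Depth was alike: the median was 14896.5 UMIs in 66 positive and 15207 in 53 negative cDC1-like cells, and 12400 in 69 positive and 11594 in 110 negative cDC2-like cells. The median mitochondrial share was 4.65% in positive and 4.74% in negative cDC1-like cells, and 4.53% and 4.87% in cDC2-like cells.

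In cDC2-like cells the positive cells had more of the integrin CD103 gene and of the chemokine gene Ccl17, and far less of several monocyte genes such as Ccr2 and Ly6c2. Of 7664 genes, 394 (5.14%) were higher and 592 (7.72%) lower; leaving out for each gene the cell richest in it, 239 and 442 were. Itgae was at 130 CPM in positive cells, against 12.5 CPM in negative cells and 3.23 CPM in control cDC2-like cells, and was detected in 55.1% of positive and 8.18% of negative cells. The log2 difference was 3.38 (2.62 to 4.24). Asb2, a ubiquitin ligase subunit that acts on filamins, was at 88.3 CPM in positive and 10.1 CPM in negative cells, and Ppp1r14a, an inhibitor of myosin phosphatase, at 145 and 22.6 CPM. Adam23, a membrane protein of the disintegrin family, was at 117 CPM in positive and 24.2 CPM in negative cells.

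Secreted and surface proteins were among the same 12 genes. Ccl17, a chemokine that draws CCR4-bearing T cells, was at 1494.5 CPM in positive cDC2-like cells, 414 CPM in negative cells and 33.0 CPM in control cells. Il1r2, the decoy receptor for interleukin 1, was at 384, 97.6 and 9.7 CPM in these 3 sets, and Clec4n, a C-type lectin that binds fungal sugars, at 293, 78.8 and 10.3 CPM. Mgl2, a lectin (CD301b) that is also a marker of the cDC2 gate, was at 888, 281 and 185 CPM. H2-DMb2, a chain of the peptide-loading molecule H2-M and likewise in the gate, was at 592, 191 and 142 CPM. Cst3, the protease inhibitor cystatin C, was at 15971.1, 5030.5 and 4082.6 CPM. Bcl2a1a, a survival gene whose near-identical copies may share reads, was at 174, 32.0 and 33.0 CPM. In 11 of the 12 the control cells lay nearer to the negative cells on a log scale.

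The 12 genes furthest lower in positive cDC2-like cells held monocyte genes. Ccr2, the chemokine receptor that brings monocytes out of the marrow, was at 72.1 CPM and in 29.0% of positive cells, against 662 CPM and 91.8% of negative cells; control cells had 616 CPM. The log2 difference was -3.20 (-3.60 to -2.83). Ly6c2, a surface protein of classical monocytes, was at 18.6 and 133 CPM in positive and negative cells, Cx3cr1, the fractalkine receptor, at 12.8 and 69.5 CPM, and Lyz2, lysozyme, at 258 and 814 CPM. Plac8 was at 422 and 1364.1 CPM. Cd209d, a lectin of the DC-SIGN family, was at 2.32 and 101 CPM, from 2 and 130 UMIs. Cd7 (81.3 and 367 CPM), Ramp1 (29.1 and 143 CPM), Nupr1 (9.3 and 58.5 CPM), Cldnd1 (23.2 and 111 CPM) and Rab3il1 (10.5 and 61.7 CPM) were lower too. Control cells lay nearer to the negative cells in 10 of the 12.

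In cDC1-like cells the largest differences again included Ccl17. Of 6962 genes, 274 (3.94%) were higher and 236 (3.39%) lower in positive cells; without the cell richest in each gene, 158 and 110 were. Ccl17 was at 476 CPM and in 48.5% of positive cells, against 18.6 CPM and 9.43% of negative cells and 6.71 CPM in control cDC1-like cells. The log2 difference was 4.68 (3.92 to 5.56). AA467197 was at 75.3 CPM in positive and 1.33 CPM in negative cells, from 74 and 1 UMIs, Bhlhe40, a transcription repressor, at 54.9 and 6.65 CPM, and Slamf9, a receptor of the SLAM family, at 51.9 and 6.65 CPM. Ahr, the aryl hydrocarbon receptor, was at 188 CPM in positive, 58.5 CPM in negative and 66.6 CPM in control cells. Ccnd2, cyclin D2, was at 480, 144 and 67.1 CPM in these 3 sets and Bcl2a1b, another survival gene of the copied family, at 329, 82.4 and 60.4 CPM.

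The other 5 of the 12, apart from Eva1b, were less evenly spread over cells. Hspa1a, a heat shock protein gene, was at 70.2 CPM in positive and 6.65 CPM in negative cells, but 1 cell held 78.3% of its UMIs in the positive set and it did not pass without that cell. Serpina1e, a liver protease inhibitor, was at 69.2 and 14.6 CPM with 51.5% in 1 cell. Serpina3g (341 and 122 CPM) and Iigp1 (67.1 and 12 CPM), an interferon-induced GTPase, had 28.7% and 30.3% in 1 cell. Eva1b was at 84.4 and 21.3 CPM, with only 7.23% in 1 cell, and was detected in 57.6% of positive and 22.6% of negative cells.

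Genes lower in positive cDC1-like cells overlapped with those of cDC2-like cells. Id3, an inhibitor of DNA-binding factors, was at 78.3 CPM in positive, 298 CPM in negative and 380 CPM in control cells. Cd34, a surface protein of progenitor cells, was at 28.5 and 102 CPM in positive and negative cells, Ccr2 at 183 and 437 CPM, and Plac8 at 417 and 815 CPM. Il18, a cytokine gene near Plet1 on the chromosome, was at 26.4 and 74.4 CPM. Ms4a6c (74.2 and 178 CPM), Cldnd1 (77.3 and 178 CPM), Dusp1 (80.3 and 201 CPM) and Ifi27l2a (21.4 and 67.8 CPM) were lower as well. Chil3, at 31.5 and 148 CPM, had 70.3% of its negative-set UMIs in 1 cell and did not pass without it, and Ccl5, at 38.6 and 105 CPM, had 91.1% in 1 cell and turned to a log2 difference of 2.03 without it. At a mitochondrial limit of 5%, Serpina1e (log2 difference 1.32), Chil3 (-0.45), Dusp1 (-0.39) and Il18 (-0.86) no longer passed.

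**Figure D3:**
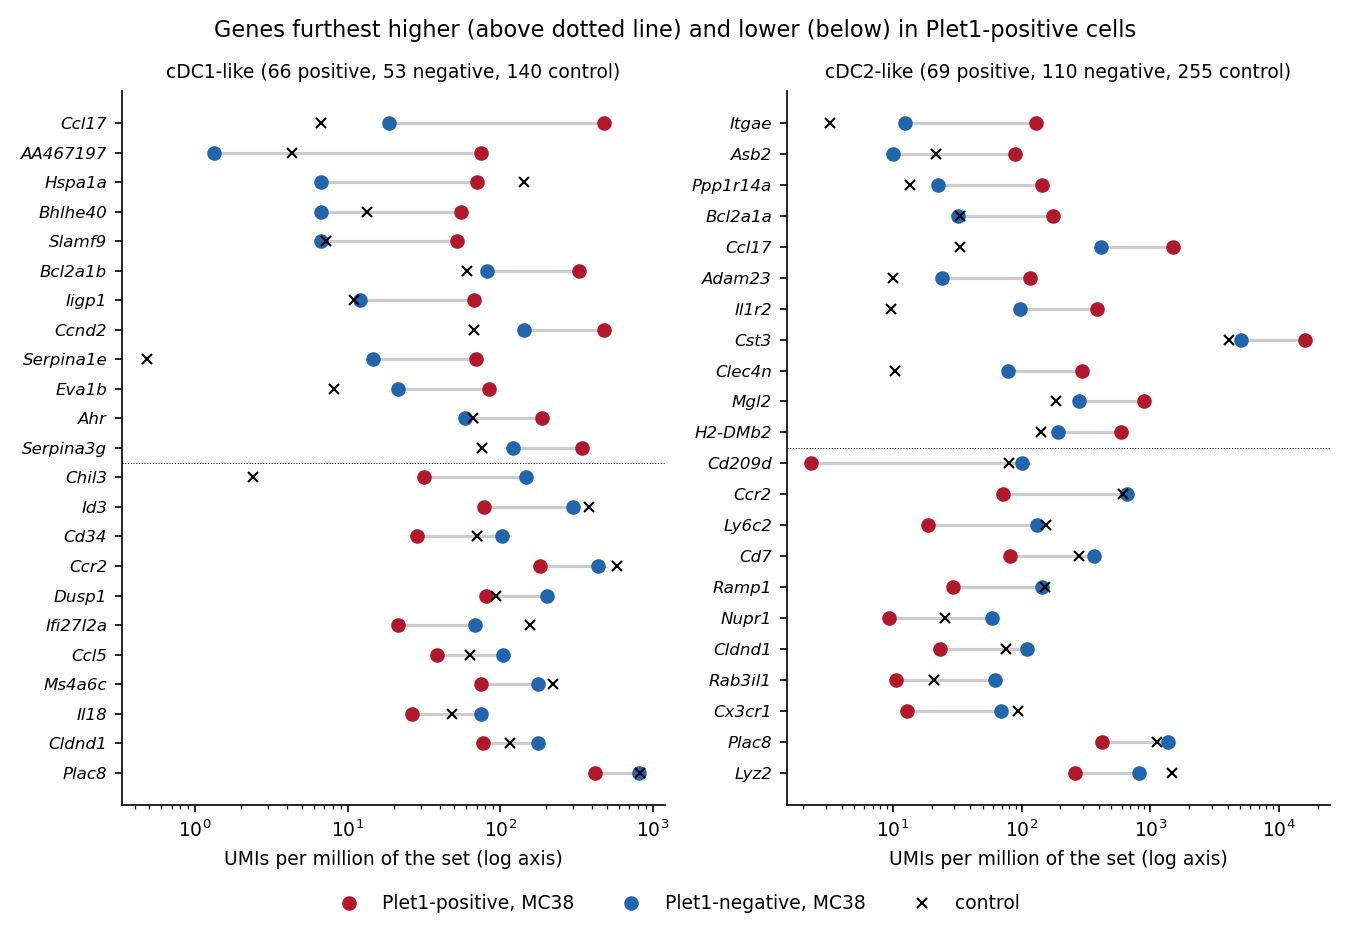
Level, in CPM on a log axis, of genes furthest higher (above the dotted line) and furthest lower (below it) in Plet1-positive cDC1-like (left) and cDC2-like (right) cells; red and blue points are Plet1-positive and Plet1-negative cells of the MC38 library and crosses the control cells. Of the genes shown, the crosses lie nearer the blue point for 11 of 12 higher and 7 of 11 lower genes in cDC1-like cells, and for 11 of 11 and 9 of 11 in cDC2-like cells.

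The same genes were followed by the number of Plet1 UMIs; since they were picked for the difference between cells with 0 and with more, this is a description only. Split into cells with 0, with 1 to 4 and with 5 or more Plet1 UMIs, 9 of the 12 higher and 8 of the 12 lower genes of cDC1-like cells ran in 1 direction over the 3 sets, and 9 and 8 did in cDC2-like cells. Mgl2 was at 281, 503 and 1100.7 CPM in cDC2-like cells, low to high, and Cst3 at 5030.5, 12051.3 and 18137.3 CPM. Ccr2 in cDC1-like cells was at 437, 235 and 153 CPM. Ccl17 in cDC1-like cells was at 18.6, 486 and 470 CPM, already as high in cells with few Plet1 UMIs.

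The 2 classes shared part of the difference. The overlaps were counted with each gene's richest cell left in. Among 6609 genes with at least 20 UMIs in each class, 65 were higher in positive cells of both classes. Of the 255 counted in cDC1-like cells, 25.5% were also counted in cDC2-like cells, where 4.86% of all these genes were. Of the 321 counted in cDC2-like cells, 20.2% were also counted in cDC1-like cells, where 3.86% of all were. Another 57 were lower in both. They were 26.8% of the 213 lower in cDC1-like cells, against 6.90% of all genes lower in cDC2-like cells. They were 12.5% of the 456 lower in cDC2-like cells, against 3.22% of all genes lower in cDC1-like cells. The shared higher genes included Ccl17, Asb2, Adam23, Il1r2, Mgl2, H2-DMb2, Ccnd2, Cd86 and Eva1b. They also held genes of cell division, among them Aurka, Bub1b, Ccnb2, Ccnf, Cdca8, Cenpa, Cenpe, Cenpf and Ube2c. Ube2c was detected in 27.3% of positive and 13.2% of negative cDC1-like cells, and in 8.7% and 11.8% of cDC2-like cells. The shared lower genes included Ccr2, Plac8, Ly6c2, Lyz2, Id3, Cd34, Ramp1 and Cldnd1. Of the genes higher in cDC1-like cells 7 were lower in cDC2-like cells, and of those lower 5 were higher there.

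The gene lists put these genes into groups. Every list was chosen with earlier results of these data known. Members are counted out of those with at least 20 UMIs over both sets. The counts stand beside shares over all genes of 3.94% higher and 3.39% lower in cDC1-like cells, and 5.14% higher and 7.72% lower in cDC2-like cells. Of the 13 members of the monocyte list, 8 had enough UMIs in cDC1-like cells, of which 5 were lower and 0 higher in positive cells. In cDC2-like cells 7 of 13 were lower and 1, the neutrophil and monocyte alarmin gene S100a9, higher in positive cells. The median log2 difference was -0.91 and -1.08, against -0.01 and -0.08 over all genes. Without the richest cell 3 and 6 members were lower and 0 higher. Ccr2, Ly6c2, Chil3 and F13a1 of this list are also in the gate for classical monocytes, so the gate kept cells rich in them out of both sets.

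Of the list for dendritic cells of the gut and Langerhans cells, 6 of 11 members were higher and 1 lower in positive cDC2-like cells, where 5.14% and 7.72% of all genes were. The median was 0.64, against -0.08 over all genes. Beside Itgae these were Dcstamp, a fusion protein of dendritic cells and osteoclasts (27.9 and 1.56 CPM in positive and negative cells), Epcam, an adhesion molecule of epithelia and Langerhans cells (53.5 and 12.5 CPM), Cd24a (170 and 89.7 CPM), Cdh1, E-cadherin (159 and 102 CPM), and Cd101 (23.2 and 10.1 CPM). Itgam, which encodes CD11b, was the lower member, at 75.5 and 159 CPM, and Irf4, a factor of cDC2, was at 43.0 and 62.4 CPM, not counted. Without the richest cell 4 remained higher, Itgae, Dcstamp, Epcam and Cd24a. In cDC1-like cells only 4 members had enough UMIs, and Ahr was the 1 higher member.

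Maturation genes differed by class. Ccr7, Fscn1, Ccl22, Cacnb3, Nudt17 and Il4i1 of the maturation list are also in the gate for mature DC. The gate thus kept cells rich in them out of the cDC1-like and cDC2-like sets. In cDC1-like cells 16 of the 30 list members had enough UMIs, and Ccr7, Fscn1 and Ccl22 were not among them. Of the 16, 8 were higher and 0 lower, where 3.94% and 3.39% of all genes were. The median was 0.67, against -0.01 over all genes. Beside Ccl17 the higher ones were Cd83 (99.7 and 31.9 CPM in positive and negative cells), Serpinb6b (131 and 62.5 CPM), Traf1 (110 and 54.5 CPM), Cd86, a costimulatory ligand (169 and 97.0 CPM), the NF-kB subunits Relb (35.6 and 13.3 CPM) and Nfkb2 (37.6 and 15.9 CPM), and Serpinb9 (29.5 and 12 CPM), the last not without its richest cell. Nfkb1 (141 and 154 CPM) and Birc2 (20.3 and 30.6 CPM) were not counted. In cDC2-like cells 7 of 26 were higher and 6 lower, with a median of -0.05, where 5.14% and 7.72% of all genes were. The higher ones were Ccl17, Pdcd1lg2, the checkpoint ligand PD-L2 (34.9 and 5.46 CPM), Cd274, PD-L1 (59.3 and 27.3 CPM), Cd86, Socs2, Ebi3 and Ccl22, the last of which did not pass without its richest cell. Il4i1 (48.8 and 105 CPM), Cacnb3 (4.65 and 20.3 CPM), Cd40 (26.7 and 63.2 CPM), Marcksl1, Fscn1 and Ccr7 were lower, of which Cacnb3, Fscn1 and Ccr7 did not pass without the richest cell.

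Of genes of class II presentation, 1 of 12 was higher in cDC1-like cells, H2-DMb2 (180 and 83.7 CPM), and 0 were lower, where 3.94% and 3.39% of all genes were. In cDC2-like cells 4 of 12 were higher, where 5.14% of all genes were: H2-DMb2, H2-Oa (410 and 138 CPM) and H2-Ob (97.6 and 53.8 CPM), which encode the 2 chains of the H2-O modulator of peptide loading, and H2-Eb1 (7742.1 and 5144.4 CPM), the last not without its richest cell. H2-DMb1 was lower, at 528 and 1077.7 CPM. The neighbouring H2-DMb1 and H2-DMb2 are near-identical copies whose reads the counting may have split. Of the GM-CSF receptor and STAT5 list, 2 of 8 were higher in cDC1-like cells (3.94% of all genes), Ccl17 and Socs1 (59.0 and 31.9 CPM), Socs1 not without its richest cell. In cDC2-like cells 4 of 11 were higher (5.14% of all genes), Ccl17, Ccl22, Socs2 and Cish, a STAT5-induced inhibitor (68.6 and 28.1 CPM), of which Ccl22 did not pass without its richest cell, and 1 was lower, Socs3 (54.6 and 111 CPM). Ccl17, Ccl22 and Socs2 are also in the maturation list and were counted there too.

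Of cell cycle genes, 12 of 14 were higher and 0 lower in cDC2-like cells (median 1.14), where 5.14% of all genes were higher, but few cells carried them: Ube2c was at 166 CPM in positive and 35.1 CPM in negative cells and was detected in 8.7% and 11.8% of cells, and 5 of the 12 stayed higher without the richest cell. Tyms was also counted higher (24.4 and 10.9 CPM); Hmgb2 (217 and 167 CPM) and Pcna (27.9 and 34.3 CPM) were not counted. In cDC1-like cells 2 of 15, Ube2c (161 and 77.1 CPM) and Ccnb2 (63.0 and 29.2 CPM), were higher. Of interferon response genes, 1 of 6 was lower in cDC1-like cells, Irf7 (34.6 and 89.1 CPM), and 4 of 12 in cDC2-like cells, where 3.39% and 7.72% of all genes were, and 0 were higher, with Bst2 at 166 and 344 CPM and Mx1 at 5.81 and 28.9 CPM; Cxcl10 and Usp18 did not pass without their richest cell. Of adhesion and motility genes, Actn1, alpha-actinin, was higher in positive cells of both classes (269 and 142 CPM in cDC1-like, 313 and 98.3 CPM in cDC2-like cells), while 2 of 20 and 4 of 22 were lower, where 3.39% and 7.72% of all genes were. Both in cDC1-like cells, Capg (12.2 and 26.6 CPM) and S100a6, did not pass without their richest cell, and 3 of the 4 in cDC2-like cells did, among them Vim (1360.9 and 2326.4 CPM) and Lgals1 (343 and 704 CPM). Of glycolysis genes 1 of 13, Ndrg1 (65.1 and 31.9 CPM), and 2 of 13, Tpi1 (264 and 146 CPM) and Ero1l (37.2 and 14.0 CPM), were higher in cDC1-like and cDC2-like cells and 0 lower, where 3.94% and 5.14% of all genes were higher.

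**Figure D4:**
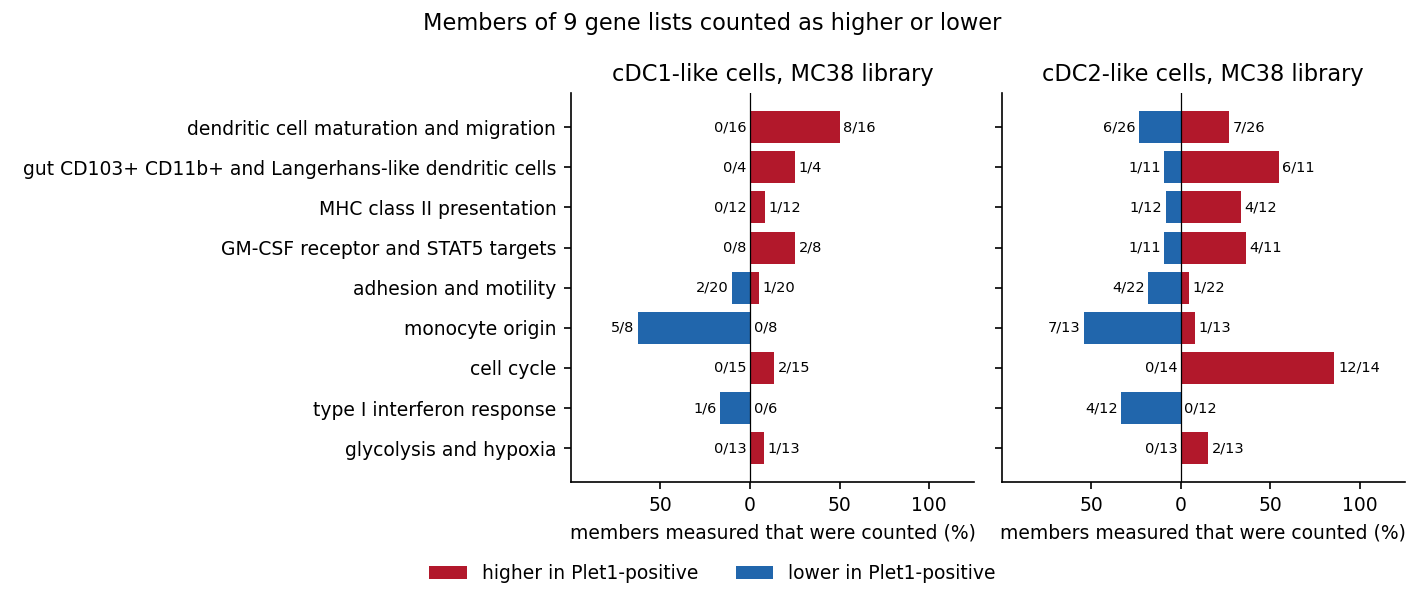
Share (%) of list members counted as higher (red, right) or lower (blue, left) in Plet1-positive cDC1-like and cDC2-like cells of the MC38 library. The share is over members of 9 gene lists with at least 20 UMIs over both sets, called measured on the axis. Counts stand beside each bar. The monocyte list leans to the lower side in both classes, 5 of 8 and 7 of 13, and the cell cycle list to the higher side in cDC2-like cells, 12 of 14.

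Markers of other cells were set beside these differences. The summed cDC1 markers were at 1816.2 CPM in positive and 1827.6 CPM in negative cDC1-like cells, and the summed cDC2 markers at 2527.6 and 1954.9 CPM in positive and negative cDC2-like cells. The classical monocyte markers were at 289 and 724 CPM in positive and negative cDC1-like cells and at 307 and 1014.5 CPM in cDC2-like cells. T cell markers were at 10.2 and 38.5 CPM in cDC1-like and 24.4 and 20.3 CPM in cDC2-like cells, hepatocyte markers at 228 and 124 CPM and at 213 and 203 CPM, and neutrophil markers at 37.6 and 50.5 CPM and at 102 and 35.9 CPM. The cDC1 markers, which include Itgae, were at 184 and 38.2 CPM in positive and negative cDC2-like cells. Kupffer cell markers were at 156 and 73.1 CPM in cDC1-like and 83.7 and 36.7 CPM in cDC2-like cells. The epithelial or tumor markers were at 61.0 and 27.9 CPM and at 74.4 and 39.8 CPM. These include Epcam, which alone was at 53.5 and 12.5 CPM in positive and negative cDC2-like cells. B cell markers were at 94.6 and 62.5 CPM in cDC1-like and 10.5 and 68.7 CPM in cDC2-like cells, and pDC markers at 49.8 and 39.9 CPM and at 56.9 and 147 CPM. The part of these in the gene differences was not tested.

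Mature DC-like cells gave too few positive cells for more than a list: 7 against 206, with median depths of 14151 and 7301.5 UMIs. Of 6491 genes 204 (3.14%) were higher and 219 (3.37%) lower. Mgl2 (626 and 25.1 CPM in positive and negative cells), Gsn (297 and 26.4 CPM), Serpinb1a (658 and 77.8 CPM), Ifitm1 (2376.4 and 323 CPM), Ccl17 (3320.6 and 644 CPM) and Ifitm3 (1124.6 and 228 CPM) were furthest higher, and H2-M2, Tcf7, Tnfrsf4, Eno3, PISD and Epsti1 furthest lower, of which H2-M2 and Tcf7 had no UMI in the positive cells. Serpinb1a was detected in 14.3% of the positive cells, that is in 1 of them. Of the class II list 8 of 12 members were higher, among them H2-Ab1 (3628.3 and 1593.3 CPM), and 2 lower, Ctss (382 and 599 CPM) and Ifi30 (1082.1 and 1626.1 CPM); without the richest cell 4 were higher and 1 lower. Of the maturation list 3 of 30 were higher, 2 without the richest cell, and 5 lower, the lower ones including Fscn1 (1262.5 and 2466.5 CPM) and Relb (339 and 792 CPM).

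Pooling the 3 dendritic classes gave 142 positive and 369 negative cells and larger counts, 727 higher (7.45%) and 1179 lower (12.1%) of 9752 genes, or 511 and 1015 without the richest cell, but the mix of classes differs between the sets: 206 of the 369 negative cells and 7 of the 142 positive cells were mature DC-like. The genes furthest lower, such as Fscn1 (65.0 and 1076.6 CPM), Cacnb3 (25.8 and 409 CPM) and Il12b (15.0 and 172 CPM), are accordingly genes of mature dendritic cells. Asb2 (105 and 17 CPM), Ube2c, Mgl2, Il1r2, Hepacam2, Havcr2 (99.1 and 28.7 CPM), which encodes the receptor TIM-3, and H2-DMb2 were higher in the pooled comparison and within both cDC1-like and cDC2-like cells.

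Across 26 groups of cells, each a class in a library with at least 50 cells, the genes whose log2(CPM + 10) followed that of Plet1 most closely were Sall2 and Ppp1r14a (Pearson r of 0.87 each), Gpr82 (0.86), Cabp4 and Gm4349 (0.81), Ppp1r1a (0.8), P2rx5 (0.78), Itgae (0.77), Fndc5 (0.76) and Mrvi1 (0.75). Groups of 1 library share its depth and its free RNA, and most of these genes are low, so r is a description. Ppp1r14a was at 59.3 and 71.9 CPM in cDC1-like and cDC2-like cells of the MC38 library, against 10.5 and 13.6 CPM in those of the control library. Itgae was at 399 and 59.8 CPM in the MC38 library, against 93.9 and 3.23 CPM in the control library. None of the 10 came as near to 0 in control dendritic cells as Plet1 while also reaching its level in MC38 cells.

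The genes beside Plet1 on chromosome 9 did not share its pattern. Pts, the next gene after it, an enzyme of tetrahydrobiopterin synthesis, was at 35.6 CPM in positive, 25.3 CPM in negative and 44.1 CPM in control cDC1-like cells, and at 44.2, 27.3 and 41.4 CPM in cDC2-like cells. Sdhd, a subunit of succinate dehydrogenase, was at 62.0, 61.1 and 63.7 CPM in cDC1-like and 54.6, 39 and 54.6 CPM in cDC2-like cells, and Rpl10-ps3 before Plet1 at 45.8, 43.9 and 31.6 CPM in cDC1-like cells. Ttc12, Ncam1, Gm11149 and Tex12 had at most 2 UMIs in any of these sets and Bco2 at most 10. Il18 was lower in positive cDC1-like cells, as given above, and had 10 and 9 UMIs in positive and negative cDC2-like cells.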

How the data were processed

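The deposited files hold counts of UMIs per gene and barcode, per the file headers and the values, for 2 libraries. Per the submitters' processing notes the tools were Cell Ranger 2.2, bcl2fastq, STAR, R 3.6.0 and Seurat 2.3.4, with build GRCm38.p6 and no roles named, while the matrix header gives software version 3.0.2. Python 3.11.15, numpy 2.4.6, scipy 1.17.1, pandas 2.3.3, scanpy 1.11.5 and igraph 0.11.9 were used.

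Barcodes with under 200 genes, or with over 10% of UMIs from 13 mitochondrial genes, were left out; scrublet doublet calls (1727 in the MC38 and 569 in the control library, 8.71% and 3.99%) were removed. Each cell was scored on 21 marker lists by the mean of its log2(1 + UMIs per 10000) over the markers, each divided by the marker's 90th percentile in cells with a UMI and limited to 1. It took the best class with at least 3 markers detected and a lead of 0.05, and cDC1 was told from cDC2 by the cDC1 markers against Cd209a, Clec10a, Mgl2 and Tnip3. These gate settings were chosen after the data were seen. In the MC38 library 947 cells and in the control library 261 cells took no class, and 7 MC38 and 18 control cDC1-like cells and 21 and 44 cDC2-like cells had a lead under 0.1. The classes are rebuilt from markers and may differ from the study's own.

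CPM is a gene's UMIs over those of all genes, summed over a class of 1 library. A group at 0 was set to a floor of 3 counts. Intervals and calls were tested only on simulated Poisson sums, the model that the intervals assume. Such sums hold no added spread between cells, so they cannot test calls that rest on few cells. Named genes were Plet1 and Plet1os; the 10 most alike; for each dendritic class the 12 in each direction (6 in mature DC-like cells) ranked by the interval end nearest 0, with at least 50 CPM and 10% detection in the higher set and without receptor, ribosomal, mitochondrial, hemoglobin and unnamed-model genes; list extremes; and up to 5 genes on each side. Other list members named were chosen after their values were seen. The members, lists and comparisons were chosen with earlier results of these data known. Some genes that the rule names are not reported here. Positions come from GENCODE M21.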

Additional observations from a re-analysis of the deposited data

Results flagged for a closer look

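Plet1 was also found in MC38 barcodes that the main comparisons of classes left out, at levels above the control library. Barcodes over the mitochondrial limit had 6.11 CPM in the MC38 library (108 UMIs in 53 barcodes) and 0.0363 CPM in the control library (2 UMIs). Doublet calls had 5.33 CPM in the MC38 library (85 UMIs in 29 barcodes), against 0 UMIs in 569 control barcodes. Cells that took no class had 28.9 CPM in the MC38 library (127 UMIs in 34 of 947 cells) and 0.443 CPM in the control library (1 UMI in 261 cells).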

How the results depend on the processing

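No paired analysis was possible because the groups share only replicate number 1, each being 1 library. Control classes at 0 were set to 3 counts. With a mitochondrial limit of 5%, the log2 ratio of Plet1 in MC38 over control cells was then 6.39 in cDC1-like cells. It was 6.01 in cDC2-like and 0.5 in classical monocyte-like cells. The last was 0.04 with classes from joint clustering and 1.5 as a mean over cells. For mature DC-like and macrophage-like cells no ratio was computed, since at the 10% limit the control floor lay above the MC38 level. The share of MC38 cells with a Plet1 UMI was, by joint clustering, 42.4% in cDC1-like, 30.8% in cDC2-like and 0.448% in classical monocyte-like cells. Thinned, it was 24.3%, 17.1% and 0.129% in these classes, 0.686% in mature DC-like and 0.455% in macrophage-like cells. With at least 2 UMIs asked, it was 0.317% in classical monocyte-like and 0.552% in macrophage-like cells. As a mean over cells, 420 genes were higher and 393 lower in positive cDC1-like cells and 1179 higher over the 3 dendritic classes. With negative cells under a depth floor taken from the positive cells left out, 449 were higher and 784 lower over the 3. That floor does not match the depth of the sets. Without the cell richest in each gene, an alternative chosen after seeing the data, 158 were higher and 110 lower in cDC1-like and 239 higher in cDC2-like cells. Of the 10 genes most like Plet1, 6 were among the 10 on log2(CPM + 1). Over 48 gene results and 432 alternative values, 421 kept direction and call, 9 kept direction only, and Ccl5 in cDC1-like cells turned to 0.32 at the 5% limit and 2.03 without its richest cell. The cause was not tested. With 1 library per group, no spread between mice is known.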

Other observations

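In the joint clustering, which left Plet1 out of the variable genes, the cDC1-like cluster (led by Xcr1, Itgae and Clec9a) held 578 Plet1 UMIs in 70 of 165 MC38 cells and the cDC2-like cluster (Cd209a, Mgl2, Clec10a) 526 UMIs in 68 of 221. A cluster led by Elane, Mpo, Top2a and Mki67, genes of neutrophil precursors and of dividing cells, held 205 UMIs in 27 of 150 MC38 cells; 23 of the MC38 cDC1-like cells and 9 of the cDC2-like cells lay in it. A cluster led by Htra3 and the complement gene C1qb held 60 UMIs in 15 of 917 MC38 cells, and the mature DC-like cluster 45 UMIs in 15 of 258.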
